A study of Mus musculus with 9 samples.

Results

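S100a8 and S100a9 are the 2 genes that encode calprotectin, and they were examined as a pair among the 18634 genes of the deposited table. They were chosen by name because of earlier results of these data, so their own levels, shares of cells, co-detection and highest share of the UMIs of 1 cell are descriptions and carry no test. A UMI is a unique molecular identifier, a tag that lets every captured transcript be counted once. S100A8 and S100A9 are small calcium-binding proteins that pair into a heterodimer, which makes up much of the cytosolic protein of neutrophils and which also binds zinc and manganese. When released, the dimer acts as a danger signal on receptors such as TLR4 and RAGE. Resting brain tissue holds few neutrophils outside its vessels, and circulating monocytes also make both transcripts at a lower level.

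The cells came from brainstem, cortex and hypothalamus of wild-type male C57BL/6 mice (C57BL/6J in the study's methods) aged 9 to 11 weeks and killed at ZT12, the time of lights off. The normal sleep (NS) mice were left undisturbed, the sleep deprived (SD) mice were kept awake for 12 h by a sweeping bar, and the recovery sleep (RS) mice slept after the same 12 h of deprivation, for 24 h by the study's methods and by 1 label and for 12 h by another label. Tissue of 3 mice was pooled per region and sleep group, digested with papain, cleared of debris with myelin removal beads and run on 10x Chromium version 2, so each of the 9 combinations is 1 library without a replicate. The table names its 9 libraries by codes, which are numbered 1 to 9 here in the order in which they appear, and only library 7 could be tied to a group, because it held all 1999 barcodes of the study's brainstem NS list that could be read here, from a copy of the list that is cut short, against 5 to 13 of them in each other library. The other 8 libraries were not assigned, so no comparison between regions or sleep groups could be tested.

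The table held 29571 cells, from 2575 to 3916 per library, and total UMIs per library ran from 1522766 to 5488950. Median depth ran from 402 UMIs per cell in library 1 to 1055 in library 6. Hemoglobin genes took 6.79%, 3.22% and 4.83% of all UMIs in libraries 7, 8 and 9 and from 0.0837% to 0.824% in the other libraries. Of 29015 distinct barcodes, 549 occurred in 2 or more libraries, and none of them belonged to the 8 cells described as high below.

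Both genes lie on chromosome 3 of GRCm38, in the cluster of S100 genes. S100a8 spans chr3:90669071-90670034 on the forward strand and S100a9 spans chr3:90692630-90695721 on the reverse strand, with 22595 bases between them. GENCODE M21 gives each gene 3 exons, of which 2 are coding, for proteins of 89 and 113 residues. The 250 bases before each RefSeq gene start (GRCm38.p6) are printed here 5′ to 3′ on the strand of the gene. They are given because most UMIs of both genes lay in the same few cells. Capitals mark every match, on either strand, to TATAAA (the TATA box), TTNNGNAA (a pair of C/EBP half-sites, N being any base) or GAGGAA (the core bound by PU.1). C/EBP factors and PU.1 are transcription factors of the granulocyte lineage. The S100a8 sequence is chr3:90668821-90669070 on the forward strand, and that of S100a9 is chr3:90695722-90695971 on the reverse strand.

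S100a8: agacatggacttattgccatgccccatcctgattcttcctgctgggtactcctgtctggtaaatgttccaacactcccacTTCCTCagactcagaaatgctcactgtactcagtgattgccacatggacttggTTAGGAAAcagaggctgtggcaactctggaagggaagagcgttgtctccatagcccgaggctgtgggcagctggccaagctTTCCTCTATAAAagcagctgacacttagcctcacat
S100a9: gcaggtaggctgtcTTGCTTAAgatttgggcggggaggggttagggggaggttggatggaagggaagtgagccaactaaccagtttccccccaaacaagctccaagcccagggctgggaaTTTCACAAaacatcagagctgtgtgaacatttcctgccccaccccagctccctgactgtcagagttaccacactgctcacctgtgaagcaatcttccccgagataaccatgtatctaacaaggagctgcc

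In S100a8, TATAAA stood 30 to 25 bases before the gene start, the C/EBP pattern (read as TTAGGAAA) 117 to 110 bases before it, and the PU.1 core (read as TTCCTC on this strand) 170 to 165 and 36 to 31 bases before it. The nearer PU.1 match directly adjoins TATAAA, so the capitals form 1 run, and no matches overlapped. S100a9 held the C/EBP pattern at 236 to 229 bases (read as TTGCTTAA) and at 130 to 123 bases (read as TTTCACAA), and neither TATAAA nor GAGGAA lay in this window. In S100a9, TATAAA occupied bases 1 to 6 of the annotated gene itself, just outside the printed window. Among 16754 RefSeq promoters of genes in the table, windows of the same length held TATAAA in 7.54%, TTNNGNAA in 29.7% and GAGGAA in 23.0%. The neutrophil list used below had 23 promoters for 22 of its 25 genes in the table, and 5, 12 and 12 of these held the same patterns. A match is a stretch of letters and not a measured binding site.

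The pair was concentrated in 3 libraries. S100a8 gave 130, 385 and 179 UMIs in libraries 5, 7 and 8, and 0, 2, 0, 5, 0 and 12 in libraries 1, 2, 3, 4, 6 and 9. S100a9 gave 62, 189 and 71 UMIs in libraries 5, 7 and 8, and 0, 1, 0, 1, 0 and 18 in those others. Over all cells, S100a8 summed to 713 UMIs and S100a9 to 342, found in 91 and 40 cells.

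As CPM, which scales UMIs to the total of each library, S100a8 reached 86.6 in library 7 (95% Poisson interval 78.2 to 95.7), 61.3 in library 5 (51.2 to 72.7) and 52.0 in library 8 (44.7 to 60.2). It then dropped to 2.46 in library 9 (1.27 to 4.30), 1.26 in library 4 and 1.03 in library 2. S100a9 had the same 3 libraries on top, with 42.5 CPM in library 7 (36.7 to 49.0), 29.2 in library 5 (22.4 to 37.5) and 20.6 in library 8 (16.1 to 26.0), and then 3.69 in library 9 (2.19 to 5.83), 0.517 in library 2 and 0.252 in library 4. Intervals of S100a8 were apart between libraries 7 and 5 and overlapped between 5 and 8, and for S100a9 each of these neighbouring pairs overlapped. With only cells of at least 1000 UMIs, which leaves out every high cell of libraries 5 and 7, library 8 was highest for both genes, at 93.0 CPM for S100a8 and 37.7 CPM for S100a9. The intervals, here and below, cover counting error only and take UMIs as independent, although most came from the few cells described next. No UMI of either gene was found in libraries 1, 3 and 6, where a count of 0 allows up to 1.97, 0.817 and 0.547 CPM, and up to 0.117%, 0.109% and 0.0766% of cells with a UMI, which sets no limit on cells that carry the transcript undetected.

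**Figure D1:**
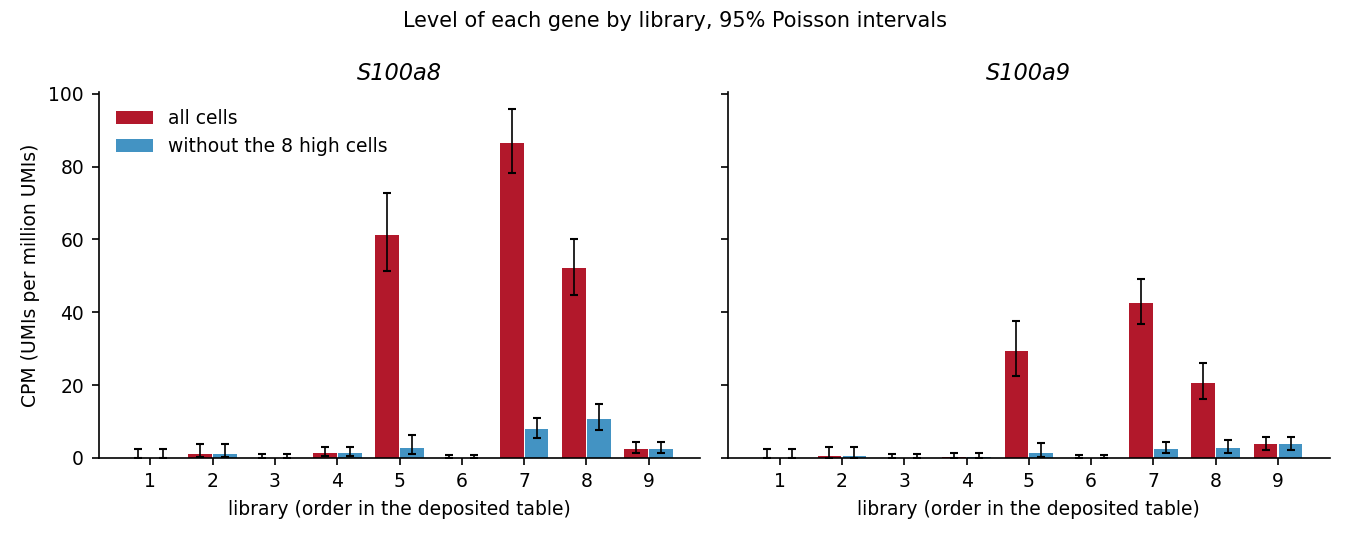
Level of S100a8 (left) and S100a9 (right) in each of the 9 libraries, in CPM, for all cells (red) and without the 8 cells in which the pair took at least 2% of the UMIs (blue); error bars are 95% Poisson intervals. Libraries 5, 7 and 8 stand above the rest, at 61.3, 86.6 and 52.0 CPM for S100a8, and come down to 2.83, 7.88 and 10.8 CPM without those cells.

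Very few cells carried the signal. In 8 of 29571 cells the pair took at least 2% of the UMIs, of which library 5 held 2 and libraries 7 and 8 held 3 each, and these are called calprotectin-high. The name is a range cut from the pair and not a cell type. Together they held 915 of the 1055 UMIs of the pair (86.7%), with 616 of 713 S100a8 UMIs and 299 of 342 S100a9 UMIs. In libraries 5, 7 and 8 they held 95.3%, 92.0% and 81.6% of the UMIs of the pair. As a share of all cells of the library they made up 0.0739%, 0.0804% and 0.0853%, with exact Clopper-Pearson intervals of 0.00895% to 0.267%, 0.0166% to 0.235% and 0.0176% to 0.249%. These intervals overlap widely with so few cells. The high cells of libraries 5, 7 and 8 gave 183, 528 and 204 UMIs of the pair.

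The highest value was that of cell 7a, the first of the library 7 cells, with 173 S100a8 and 72 S100a9 UMIs of 673 in all, or 36.4% of its transcripts. Cell 5a of library 5 held 85 and 43 UMIs of 377, or 34.0%. Cell 7b held 102 and 56 of 676, or 23.4%, and cell 7c held 75 and 50 of 625, or 20%. In all 4 of these cells S100a8 and S100a9 were the most abundant and the second most abundant transcripts. Cell 5b held 39 and 16 UMIs of 501, or 11.0%, and S100a8 led there too. The 3 cells of library 8 were deeper and gave lower shares. Cell 8b held 56 and 19 UMIs of 1123 (6.68%), cell 8a held 59 and 27 of 1627 (5.29%), and cell 8c held 27 and 16 of 1311 (3.28%). Malat1, a nuclear noncoding RNA found in most cells, was the leading transcript of those 3 cells. Median depth was 674.5 UMIs in the 8 cells and 764 in the 9948 other cells of the same 3 libraries.

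Just outside the threshold lay cell 5c, with 4 S100a8 and 3 S100a9 UMIs of 457 (1.53%), and cell 9a of library 9, with 3 and 10 UMIs of 1001 (1.30%). Next came a gap, since no other cell exceeded 0.365%. Of 120 cells with a UMI of the pair, 106 held exactly 1 and 14 held at least 2. The cells with both genes numbered 11, namely the 8 high cells, 5c, 9a and cell 7d, which held 1 UMI of each. S100a8 was found without S100a9 in 80 cells and S100a9 without S100a8 in 29.

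S100a9 UMIs numbered 0.480 for each S100a8 UMI over all cells. In the high cells S100a9 made up 32.7% of the UMIs of the pair (29.6% to 35.8%) and in all other cells summed 30.7% (23.2% to 39.1%). Single high cells ran from 25.3% in 8b (15.99% to 36.7%) to 40% in 7c (31.3% to 49.1%), with overlapping intervals. Cell 9a had S100a9 at 76.9% of the pair (46.2% to 94.96%), an interval above that of the summed high cells. It overlapped the intervals of single cells such as 7c and 8c (23.0% to 53.3%). Cell 9a gave 10 of the 43 S100a9 UMIs outside the high cells. It also gave 10 of the 18 S100a9 UMIs of library 9, where the ratio was 1.5. Both genes are counted by tags near the 3′ end, once per captured molecule, and a difference in capture between them was not tested. Pearson's r between S100a8 and S100a9, on log-scaled counts, was 0.578 across 29571 cells and 0.133 without the 8 high cells.

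**Figure D2:**
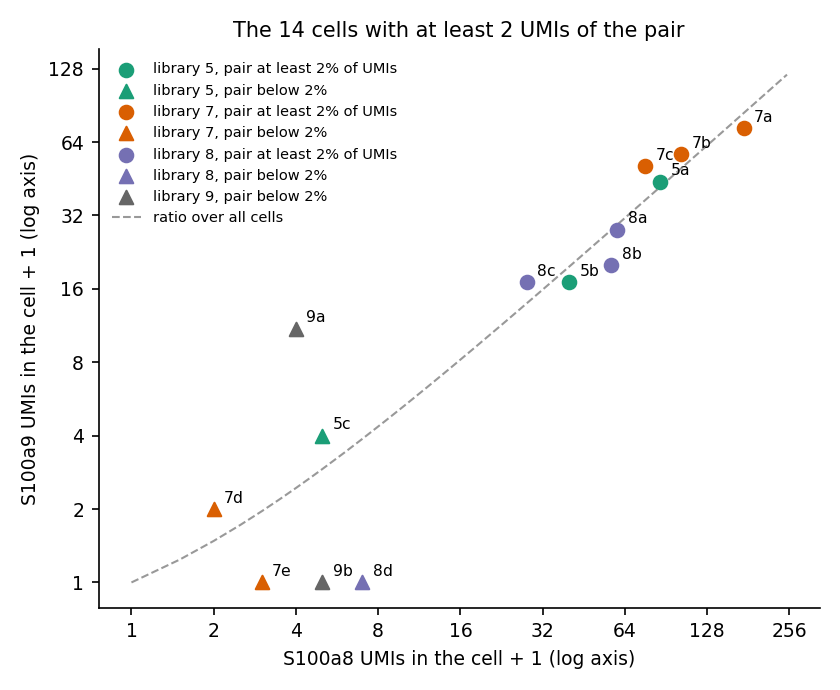
S100a8 against S100a9 UMIs plus 1 (log axes) in the 14 cells with at least 2 UMIs of the pair; colours are libraries, circles are cells with at least 2% of UMIs in the pair, triangles are the others, and the dashed line is the ratio of 0.480 over all cells. The 8 high cells follow the line, cell 9a lies above it, and cells 7e, 8d and 9b hold S100a8 and no S100a9 UMI.

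The calprotectin-high cells also carried other neutrophil transcripts. A list of 36 neutrophil genes had 25 members in the table, with the pair left out, and 21 of these had a UMI in the 8 cells. Of 11 members with at least 50 UMIs over all cells, 9 were at least 2-fold higher in the high cells than in the other cells of libraries 5, 7 and 8 after 10 CPM was added to both, against 9.99% of all 14249 genes with as many UMIs. For 8 of 11 the Poisson intervals were apart with the high cells above, against 1.46% of all genes. Against the other cells of all 9 libraries the 2-fold count was also 9, against 10.6% of all genes. Retnlg reached the minimum of 50 UMIs only through the high cells and had to differ. Over the 8 members with at least 50 UMIs in those other cells, a minimum chosen after seeing the data, 7 were at least 2-fold higher, against 11.9% of 11660 genes, and the same number had intervals apart, against 1.66%. Their median fold was 15.1, against 0.417 over all genes. Those 7 were Lcn2, Hdc, Pglyrp1, Lrg1, G0s2, Anxa1 and Cd24a, and Csf3r gave 0 UMIs in the high cells. Lcn2, Lrg1, G0s2, Anxa1 and Cd24a are left out of a choice below because other cell types can also use them. Hdc and Pglyrp1 were found in 767 and 3300 cells, so this count does not single out neutrophils. These are descriptions of 8 cells.

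Some granule genes were sparse in the table. Of 10 listed granule genes found there, 3 had at least 50 UMIs. Of these, 2 were at least 2-fold higher in the high cells than in the other cells of the same libraries, against 9.99% of all genes. Camp encodes the antimicrobial peptide cathelicidin, Ngp a neutrophilic granule protein and Ltf lactoferrin, all made for the secondary granules while neutrophils mature in the marrow. The high cells held 22 of the 24 Camp UMIs of the whole table (91.7%), 31 of 34 Ngp UMIs (91.2%) and 8 of 12 Ltf UMIs (66.7%). Most came from cells 5a and 7a. Cell 5a held 16 Camp, 15 Ngp and 7 Ltf UMIs, and cell 7a held 6, 13 and 1. Cell 7b held 3 Ngp UMIs and no Camp or Ltf, and the other 5 high cells held none of these 3 transcripts. Mmp8, the neutrophil collagenase, gave 10 of its 23 UMIs in the high cells (43.5%), spread over 5 of them.

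Retnlg, a resistin-like secreted protein of circulating neutrophils, was found in 7 of the 8 cells and gave 87 of its 103 UMIs there (84.5%). It counted 27 UMIs in cell 7b, 18 in 7a, 16 in 5b, 14 in 7c, 6 in 8a, 4 in 5a and 2 in 8b, and 0 in 8c. Wfdc21, a whey acidic protein family member, was the only gene of the list with a UMI in all 8 cells, and 27 of its 32 UMIs lay there (84.4%). Ly6g, the surface antigen used to sort mouse neutrophils, was sparse, with 3 of its 5 UMIs in cells 5a, 5b and 7c. Slpi, a secreted protease inhibitor, gave 12 of 39 UMIs (30.8%) in the high cells.

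Other members of the list were spread over many cells. Lcn2, the iron-sequestering lipocalin, had 8 of its 685 UMIs in the high cells (1.17%). It was still 60.2-fold higher there than in the other cells of the same libraries on the scale of CPM + 10. Against the other cells of all 9 libraries it was 37.0-fold higher. Hdc, which makes histamine, had 6 of 1220, G0s2, a lipase inhibitor, had 12 of 1448, and Pglyrp1, a peptidoglycan recognition protein, had 13 of 7286 UMIs there. Csf3r, the receptor for the granulocyte growth factor, gave 193 UMIs in all and none in the high cells, Il1r2, a decoy receptor for interleukin-1, gave 14 and none, and Prtn3, a protease of the primary granules, gave 132 and none. A count of 0 in the summed high cells allows up to 434 CPM (3 counts), so these zeros do not show that the transcripts were lower there, and a single UMI, as Cxcr2 gave, stands for 145 CPM.

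**Figure D3:**
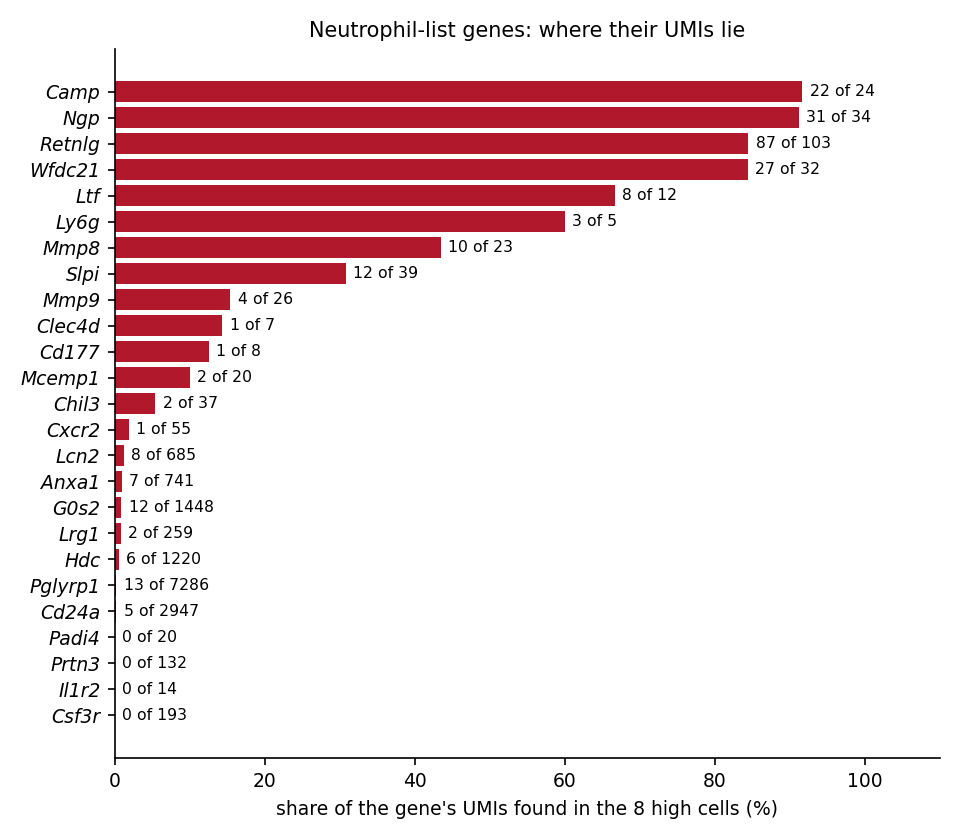
Share (%) of the UMIs of each neutrophil-list gene that lay in the 8 calprotectin-high cells, for the 25 members in the table; labels give UMIs in the high cells of UMIs in all cells. Camp, Ngp, Retnlg and Wfdc21 lie above 84%, while Csf3r, Il1r2, Padi4 and Prtn3 are at 0.

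Cells were also chosen without the pair. A subset of 16 neutrophil-list genes was counted in every cell, with S100a8 and S100a9 and 9 members that other cell types can also use, such as Lcn2 and G0s2, left out, some of which were as sparse in this table as Clec4d with 7 UMIs. Pglyrp1, Hdc and Csf3r stayed in the subset although they were found in 3300, 767 and 182 cells. At least 2 of the 16 were found in 172 cells, of which 14 (8.14%, 4.52% to 13.3%) held S100a8 or S100a9. At least 3 were found in 18 cells, of which 11 (61.1%, 35.7% to 82.7%) held S100a8 or S100a9 and 8 held both. At least 4 were found in 10 cells, of which 8 (80%, 44.4% to 97.5%) held both genes. Those 8 were the calprotectin-high cells, and the remaining 2 came from library 7. The 8 genes Retnlg, Ngp, Camp, Ltf, Mmp8, Mmp9, Ly6g and Wfdc21 were picked after their values in the high cells were seen, so their presence there is fixed by the choice. At least 1 UMI of them was found in 1 of 106 cells with a single UMI of the pair (0.943%, 0.0239% to 5.14%) and in 59 of 29451 cells with none (0.200%, 0.153% to 0.258%). The single-UMI cells were deeper than the cells with none, with a median of 1105 against 805 UMIs.

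The high cells differed in what else they held. Cells 7a, 7b, 7c and 5a had 0 or 1 UMI in each of the endothelial, pericyte, arterial smooth muscle (VSMCA), microglia, astrocyte, ependymal (EPC), oligodendrocyte and neuron lists, which have 7 or 8 genes each in the table. Cell 5a held 6 UMIs of the pituitary list, all Gh (growth hormone). Cell 5b held 7 endothelial UMIs. In library 8, cell 8a held 19 endothelial, 15 pericyte and 5 VSMCA UMIs, cell 8b held 15, 8 and 2, and cell 8c held 12 EPC and 7 astrocyte UMIs beside its 12 neutrophil-list UMIs. Cell 9a, below the threshold, held 15 endothelial and 10 erythroid UMIs and only 3 of the neutrophil list, of which 2 were Mmp8. Scrublet, which scores likely doublets within a library, called none of the 14 cells and marked between 0 and 65 cells per library. Within their libraries, the scores of the 8 high cells stood at percentiles from 80.6 in 7b to 97.5 in 5b, with 5a at 96.7 and 8c, 8b and 8a at 92.6, 90.4 and 85.4. Summed over the 8 cells, 4 of 8 endothelial and 4 of 8 pericyte genes were at least 2-fold higher than in the other cells of the same libraries, against 9.99% of all genes. Against the other cells of all 9 libraries these numbers were 6 and 5, against 10.6%. Within the same libraries, intervals were apart with the high cells above for 1 and 2 genes, against 1.46% of all genes. The endothelial Tek and Cdh5 had 1 UMI each. For microglia, VSMCA, astrocyte and neuron genes both numbers of higher genes were 0 of 8 in each list, against 9.99% and 1.46% of all genes. The EPC and macrophage lists each gave 1 of 8 genes at least 2-fold higher and 0 by intervals. The part of droplets with more than 1 cell in these values was not tested further.

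Erythroid genes took 0.246% of the UMIs of the high cells and 2.24% of those of cells without the pair, and 0 of 7 tested erythroid genes were 2-fold higher, against 9.99% of all genes. B cell and platelet lists gave 0 UMIs in the 8 cells, of 4 and 6 genes in the table, and the T and NK cell list gave 1. The monocyte list, which shares Chil3 with the neutrophil list, gave from 0 to 9 UMIs per high cell, mostly Lyz2, a lysozyme common to myeloid cells. Of 9 tested genes of the list, 2 were at least 2-fold higher in the high cells, against 9.99% of all genes, and 1 had intervals apart, against 1.46%. Lyz2 stood at 3182 CPM against 396 in the other cells of the same libraries, and Ly6c2 and Ccr2 gave 1 and 0 UMIs, too few to place their levels.

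**Figure D4:**
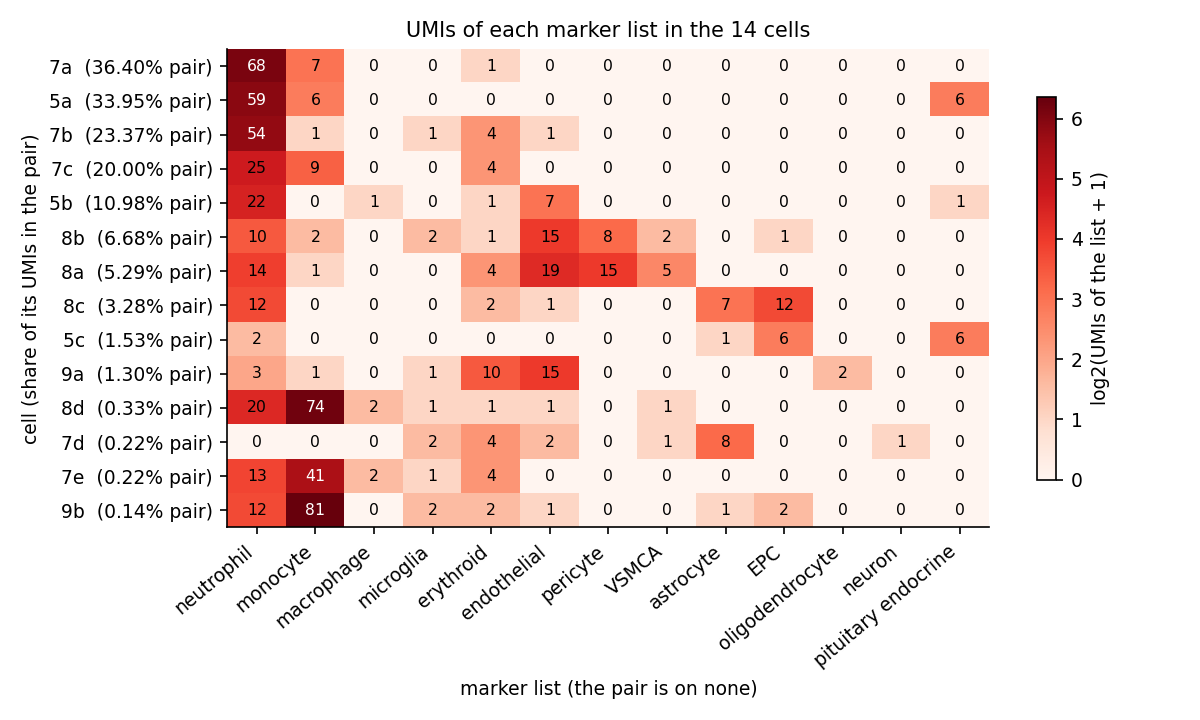
UMIs of 13 marker lists (columns) in the 14 cells with at least 2 UMIs of the pair (rows, ordered by the share of their UMIs in S100a8 and S100a9); the colour is log2(UMIs + 1) and Chil3 is on both the neutrophil and the monocyte list. The 8 upper rows hold 10 to 68 neutrophil-list UMIs, and cells 8d, 7e and 9b hold 74, 41 and 81 monocyte-list UMIs.

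In the brainstem NS library, the study's own labels put cells 7a and 7b among the 19 hemoglobin-expressing vascular cells (HbVC), while 7c was not among the 1999 listed cells read here. That list is incomplete in the copy used, so a cell called not listed may have a label of the study, and the numbers per type cover the part that could be read. All 275 S100a8 and 128 S100a9 UMIs of HbVC came from those 2 cells. HbVC therefore had the highest level of any listed type, 6256 CPM for S100a8 (5538 to 7041) and 2912 CPM for S100a9 (2429 to 3462), although the 2 cells gave only 1349 of its 43957 UMIs. Hemoglobin genes took 0.149% and 0.592% of the UMIs of cells 7a and 7b, against a median of 60.2% (range 1.95% to 94.4%) in the other 17 HbVC. Alas2, which starts heme synthesis in red cell precursors, was found in 10 of those 17 and in neither of the 2. None of the 17 held a UMI of the pair, which allows a share of cells with a UMI of up to 17.6% and sets no limit on cells that carry the transcripts undetected. The HbVC label and the neutrophil transcripts of cells 7a and 7b thus stood against each other, and these 2 cells are called by their leading genes here.

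Outside HbVC, the listed types held 15 S100a8 and 5 S100a9 UMIs in 1980 cells, with never more than 1 UMI of a gene in a cell. Endothelial cells had S100a8 in 4 of 573 cells (0.698%), VSMCA in 3 of 230 (1.30%), EPC in 2 of 88 (2.27%), and astrocytes, macrophages, microglia, oligodendrocytes, pericytes and glutamatergic neurons in 1 cell each. Microglia had the lowest share above 0, 0.182% of 549 cells (0.00461% to 1.01%), and oligodendrocytes the highest, 2.33% of 43 (0.0589% to 12.3%), and these intervals overlap. S100a9 was found in 2 endothelial cells and in 1 cell each of astrocytes, microglia and glutamatergic neurons. Over all listed cells other than HbVC, the shares were 0.758% for S100a8 (0.425% to 1.25%) and 0.253% for S100a9 (0.0820% to 0.588%) at a median depth of 902 UMIs. With each cell thinned to 500 UMIs, they were 0.408% and 0.102%. Cells that are not on the list, 7c included, had S100a8 in 1.15% of 1732 (0.707% to 1.78%) and S100a9 in 0.404% (0.163% to 0.831%) at a median of 943 UMIs.

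**Figure D5:**
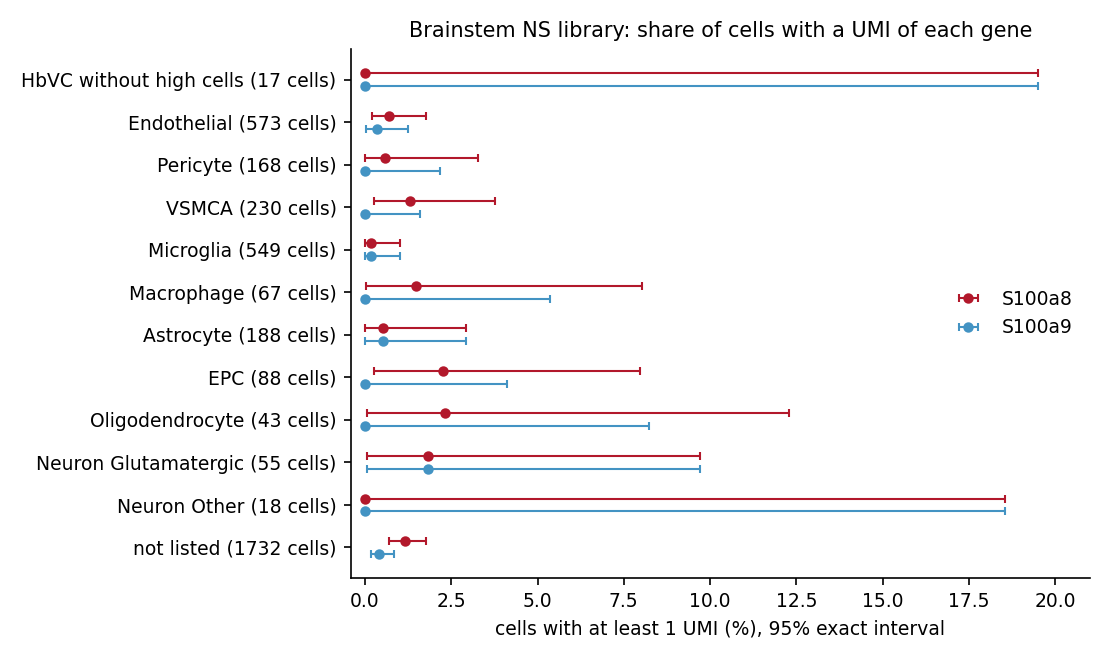
Share of cells (%) with at least 1 UMI of S100a8 (red) or S100a9 (blue) in each listed cell type of the brainstem NS library and in its cells that are not listed, with exact 95% intervals; cells 7a and 7b are left out of HbVC. Shares above 0 run from 0.182% in microglia to 2.33% in oligodendrocytes for S100a8, with wide intervals that overlap.

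Neurons, oligodendrocytes and endothelial cells are not known to make these transcripts at rest, and free RNA in droplets can give single UMIs in cells that do not express a gene. Single UMIs are therefore not read here as expression in any listed type, and the part of free RNA in them was not tested. Outside the high cells, S100a8 was found in 0.912% (0.632% to 1.27%) of library 7, where cell 7e, with monocyte transcripts, was the only such cell with 2 UMIs of the gene, and in 0.910% (0.623% to 1.28%) of library 8. Among the cells of library 8 with at least 3 of the 8 markers of a list, the share ran from 1.01% of 891 endothelial-marker cells (0.463% to 1.91%) to 3.07% of 293 EPC-marker cells (1.41% to 5.75%). In between were astrocyte markers at 1.04%, microglia at 1.10%, pericyte at 1.17%, VSMCA at 1.499%, macrophage at 1.89%, erythroid at 2.41% (1.21% to 4.28%) and neuron at 2.53% (0.308% to 8.85%). Cells with at least 3 of the 10 monocyte markers had S100a8 in 3 of 46 (6.52%, 1.37% to 17.9%), and in 1 of 45 (2.22%) after thinning to 500 UMIs. Depth differed between these classes, with medians of 656.5 UMIs in microglia-marker cells and 805 in endothelial-marker cells. Medians were 1365.5 in erythroid, 1480 in neuron and 1630 in EPC-marker cells. Macrophage-marker and VSMCA-marker cells had medians of 710 and 997 UMIs. The macrophage share rested on 1 of 53 cells (0.0478% to 10.1%) and the VSMCA share on 7 of 467 (0.605% to 3.06%). Microglia markers gave 10 of 906 cells (0.531% to 2.02%) and endothelial markers 9 of 891. These intervals overlap, so the shares could not be put in order, and their relation to depth was not tested. Monocyte-marker cells had a median of 995.5. With cells thinned to 500 UMIs, the library 8 share was 0.385% for microglia, 0.492% for endothelial, 0.282% for pericyte and 0.686% for erythroid markers. It was 0 of 289 cells for EPC, 0 of 464 for VSMCA and 0 of 619 for astrocyte markers. Neuron and macrophage markers gave 0 of 73 and 0 of 48 cells. In library 7, EPC-marker cells kept 1.60% after thinning, from 3 of 187 cells. Library 9 had no high cell and S100a8 in 0.189% of its cells (0.0758% to 0.388%), against 0.992% and 0.995% in libraries 7 and 8 with high cells included. Library 5 had S100a8 in 0.111% (0.0229% to 0.324%) of its other cells at a lower median depth of 565 UMIs. The marker classes left out the high cells, with and without thinning. For the thinned shares of whole libraries, high cells of at least 500 UMIs were included. Thinning left out 26, 410 and 1149 shallower cells of libraries 7, 8 and 5, among them high cell 5a with 377 UMIs. From libraries 1 and 2 it left out 1735 and 2036 cells. The thinned shares with S100a8 in libraries 7, 8, 5 and 9 were 0.567%, 0.386%, 0.0642% and 0.108%, in library 5 from 1 cell.

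The rest of the pathway was described from lists made with earlier results known. Of 13 other genes of the S100 list in the table, S100pbp (a binding partner) included, 10 had at least 50 UMIs and 3 were at least 2-fold higher in the high cells than in the other cells of the same libraries, against 9.99% of all genes, 2 of them with intervals apart, against 1.46%. S100a11, which binds annexins, had 34 UMIs in 8 of 8 cells and a level of 4918 CPM (3406 to 6873) against 226 in the other cells. S100a6 had 24 UMIs in 5 cells, 3472 CPM (2224 to 5166) against 161. S100a13, the other one, had only 3 UMIs. S100b, the astrocyte and ependymal member, gave 0 of its 5608 UMIs there. Among regulators, 2 of 5 tested were at least 2-fold higher, against the same 9.99%, and 1 of these had intervals apart, against 1.46%. Cebpb, a C/EBP factor of mature myeloid cells, had 8 UMIs in 4 cells, 1157 CPM (500 to 2280) against 261, and Spi1, which encodes PU.1, rested on 1 UMI. Cebpe, the C/EBP factor of granule gene expression, had 3 UMIs in the whole table and none in the high cells.

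Receptors for calprotectin gave few UMIs in the high cells. Of the 7 listed, Tlr4, its partner Ly96, Ager (which encodes RAGE) and Cd36 had 0 UMIs in the high cells, Cd14 and Cd33 had 1 each, and Bsg, a broadly used receptor, had 7 of 46362. On the scale of CPM + 10, Cd33 was 3.02-fold higher than in the other cells of the same libraries, 1 of 7 against 9.99% of all genes. Against the other cells of all 9 libraries Cd33 was 4.92-fold higher. No receptor had intervals apart with the high cells above. Cd14 stood at 1.42-fold, and at 2.67-fold only when set against the other cells of all 9 libraries, where 10.6% of all genes were 2-fold higher. Bsg was lower in the high cells with intervals apart, at 1013 CPM (407 to 2086) against 2389 (2359 to 2419) in the same libraries. On the scale of CPM + 10 it stood at 0.426-fold, near the median of 0.495 over all tested genes. The share of all genes lower with intervals apart was not counted. Zeros that allow 434 CPM set no bound near the 6.398 CPM of Tlr4 or the 6.60 CPM of Ager in the other cells of the same libraries. In the brainstem NS library Tlr4 was highest in microglia, 19.7 CPM (9.45 to 36.3) from 10 cells, where Ly96 reached 140.0 CPM (109 to 177) and Cd14, the lipopolysaccharide co-receptor, 562 CPM (498 to 631). Bsg was highest in endothelial cells, with 6621 UMIs. Ager gave 7 UMIs over the listed types other than HbVC, 6 of them in VSMCA. By library, Tlr4 ran from 0.545 CPM in library 3 to 8.10 in library 7 and Ager from 0.272 in library 3 to 9.90 in library 5.

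Genes with a pattern most like the pair were ranked among those with at least 50 UMIs. Across 29571 cells Retnlg came first with a Pearson's r of 0.476, followed by Hp, which encodes haptoglobin, at 0.187 and by Pqlc3, Pygl, Mgst2, AB124611, F630028O10Rik, Lcn2, Impa2 and Wfdc17 at 0.102 to 0.0660. Without the 8 high cells these values ran from -0.00251 to 0.0424, so they rested on those cells. Retnlg, with 16 of its 103 UMIs elsewhere, passed the minimum through the high cells alone, so its rank is fixed by them, while Wfdc21, Ngp and Camp lay under the minimum and were not ranked. Of the 10 genes, only Retnlg had most of its UMIs there, and the remaining 9 had from 1.17% to 5.88%. Across the 9 libraries, where 3 libraries carry the pattern and depth is shared, the 5 highest were Tlr2 (0.957), Retnlg (0.930), Tnf (0.909), Pdrg1 (0.907) and Taf7 (0.904). Tlr2 and Tnf gave 0 UMIs in the high cells and reached 11.7 and 7.20 CPM in library 7.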

How the data were processed

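The authors mapped reads to GRCm38 with Cell Ranger 2.2.0 and deposited filtered UMI counts per gene and cell, whole numbers without normalization, in 1 table for all libraries. The annotation release is not given in the sources used here. From these counts, UMIs were summed per library, listed cell type or cell class and scaled to CPM. Intervals are exact at 95%, from the Poisson distribution for CPM and by Clopper-Pearson for shares. A share of 0 was given with the limit that 3 counts allow. Cells were thinned to 500 UMIs by random draws for shares across depths. Since 8 of the 9 libraries are not assigned to a region and sleep group, there is no test and no p-value. Library 7 was tied to brainstem NS through listed barcodes, and the list is held here for 1999 cells only. Folds set the summed high cells against the summed other cells of the libraries that hold them, on CPM + 10, for genes with at least 50 UMIs over all cells. Likeness was Pearson's r of log(1 + 10000 x UMIs / total) across cells and of log2(CPM + 10) across libraries, and the 10 and 5 genes with the highest r were named beside all genes of the neutrophil, S100, receptor and regulator lists. Malat1, Ly6c2, Ccr2, Lyz2 and Alas2 were named after their values were seen. Members and lists were chosen with earlier results of these data known. Alternatives used cells with 1000 or more UMIs, totals without mitochondrial and hemoglobin genes, no high cells, the mean over cells, other thresholds and a pseudocount of 1 CPM, and no cells called doublets. All cells were kept. The fold and correlation steps were tested on simulated data. Scrublet was run in scanpy 1.11.5, figures were drawn with matplotlib 3.10.9, and values were computed in Python 3.11.15 with scipy 1.17.1, numpy 2.4.6 and pandas 2.3.3. Protein sequences were not used here.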

Additional observations from a re-analysis of the deposited data

How the results depend on the processing

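Of 54 values under alternatives, 34 stayed within the interval or within 1.5 times of the value reported, and 20 did not. Without the 8 high cells, the highest library level was 10.8 CPM for S100a8 (library 8, from 86.6) and 3.69 CPM for S100a9 (library 9, from 42.5), and the highest listed type was at 19.1 CPM for both, from 1 UMI of each in glutamatergic neurons. With totals that leave out mitochondrial and hemoglobin genes, the highest libraries were at 102 and 50.2 CPM and HbVC at 21516 and 10014.9 CPM. Taken as a mean over cells, the highest libraries were at 150.1 and 75.4 CPM. At a minimum of 1000 UMIs per cell, which removes 5 of the 8 high cells, 3 high cells and 4 cells with both genes remained, library 8 in place of 7 was highest (93.0 and 37.7 CPM), the highest listed types were pericytes for S100a8 (17.9 CPM) and endothelial cells for S100a9 (2.45 CPM), and the median share with S100a9 was 0, as it was after thinning, against 0.0315%. At least 2 UMIs per cell gave a median share of 0 for both genes. Of the 172 cells with at least 2 neutrophil-list genes, a minimum of 3 genes left 18, and 8 genes chosen after the data were seen gave 7. Thresholds of 1% and 5% gave 10 and 7 high cells. No paired analysis was possible because no result comes from a test. No region or sleep group was assigned to 8 libraries, mice were pooled within each library, and the levels of libraries 2, 4 and 9 rest on 1 to 18 UMIs.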

Other observations

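S100a8 without S100a9 was also found in a few cells with monocyte transcripts, which were singled out after their values were seen. Chil3, a chitinase-like protein of monocytes and neutrophils, was found in 9 cells outside the high cells. Of 4 cells with at least 5 Chil3 UMIs, 3 held S100a8, with 12 UMIs in all, and 0 held S100a9, while the 5 cells with 1 to 4 Chil3 UMIs held neither gene. The 3 cells were 8d (6 S100a8 UMIs of 1797), 9b (4 of 2775) and 7e (2 of 904). They held 47, 56 and 25 Lyz2 UMIs, and Ly6c2, a surface antigen of inflammatory monocytes, gave 4 UMIs in 8d and 12 in 9b. The pair took from 0.144% to 0.334% of their UMIs. In cells with at least 3 of 10 monocyte markers, S100a8 was found in 1 of 43 in library 7, 3 of 46 in library 8 and 1 of 57 in library 9, at median depths of 1419, 995.5 and 983 UMIs, and S100a9 in none of these.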
